A study of Mus musculus with 12 samples.

Results

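Gasdermins are a small family of proteins that can open pores in membranes, and 5 of their genes are described here in mouse colon tumours: Gsdmd and the 4 Gsdmc genes Gsdmc, Gsdmc2, Gsdmc3 and Gsdmc4. They are 5 of the 24062 genes in the deposited count table. They were chosen by name after earlier results of these data, in which Gsdmc2 differed between WT => St2-/- and WT => WT tumours. Of the 5, 4 passed the filter on low counts and were among the 15060 genes tested, and Gsdmc did not pass it.

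The tumours came from bone marrow chimeras made to separate the genotype of the marrow from that of the host for St2, the interleukin-33 receptor that the gene Il1rl1 encodes. Irradiated WT or St2-/- Balb/c recipients were given WT or St2-/- marrow, and every group then received 6 injections of azoxymethane (AOM, 10 mg/kg), a carcinogen that induces colon tumours. Each group is written as marrow => host. Tumours of the St2-/- => St2-/-, WT => St2-/-, St2-/- => WT and WT => WT groups were collected at week 13 or 14 from the last AOM dose, with 3 biological replicates a group. All animals were male except WT => St2-/- replicate 3, and the WT => WT animals were irradiated and given marrow and AOM like the rest, so that no group is untreated tissue. Radiation-resistant cells of the host, among them the epithelium, keep the host genotype, as may some resident leukocytes. In the labels, the library numbers of St2-/- hosts and of WT hosts come from separate number series, so the host genotype and any difference between these series cannot be told apart.

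A gasdermin is made as an inactive precursor whose amino-terminal part forms the pore once a protease has cut it free. In the mouse, Gsdmd is cut by the inflammatory caspases encoded by Casp1 and Casp4, and its pore releases interleukin-1 family cytokines and can end in the lytic death called pyroptosis. The Gsdmc genes are a tandem group of copies active in the intestinal epithelium, where worm infection and the type 2 cytokines interleukin-4 and interleukin-13 are known to raise Gsdmc2, Gsdmc3 and Gsdmc4 through the factor Stat6. Caspase-8 is the protease known to cut gasdermin C.

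All 5 genes lie on chromosome 15 (GRCm38, GENCODE M21). The Gsdmc genes follow each other on the minus strand, with Gsdmc at chr15:63775968-63808759, Gsdmc2 at chr15:63824346-63845177, Gsdmc3 at chr15:63857724-63878558 and Gsdmc4 at chr15:63891264-63912297. Gsdmd lies apart on the plus strand at chr15:75862327-75867408. Over aligned coding bases Gsdmc2 and Gsdmc3 were 97.08% identical, Gsdmc2 and Gsdmc4 93.51%, and Gsdmc3 and Gsdmc4 93.44%. Gsdmc was more distant, at 86.11% to 86.41% from the others. The 50-base stretch in which Gsdmc2, Gsdmc3 and Gsdmc4 differed most is shown because only such bases tell a read of these genes apart. Capitals mark the 14 positions at which these 3 differ among themselves, and in Gsdmc also any position at which it differs from Gsdmc2. The stretch crosses an exon junction, and its genomic span of chr15:63826889-63827770 in Gsdmc2 (exons 10 and 11, minus strand) therefore includes an intron.
Gsdmc: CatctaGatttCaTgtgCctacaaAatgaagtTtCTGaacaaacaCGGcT
Gsdmc2: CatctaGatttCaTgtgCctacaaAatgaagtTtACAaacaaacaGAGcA
Gsdmc3: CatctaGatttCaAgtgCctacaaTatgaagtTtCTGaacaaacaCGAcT
Gsdmc4: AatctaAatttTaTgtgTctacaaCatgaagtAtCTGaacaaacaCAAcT

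At the start of the coding sequence the copies cannot be told apart. The first 50 coding bases were identical in Gsdmc2 (chr15:63835894-63835943, exon 4), Gsdmc3 (chr15:63869248-63869297, exon 3) and Gsdmc4 (chr15:63902881-63902930, exon 2). They are shown once, beside those of Gsdmc (chr15:63804543-63804592, exon 2), in which capitals mark the bases that differ from Gsdmc2.
Gsdmc2: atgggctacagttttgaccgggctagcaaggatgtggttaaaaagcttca
Gsdmc: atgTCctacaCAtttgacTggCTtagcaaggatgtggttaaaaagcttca

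Of 1067 ungapped 50-base windows along the coding alignment, 354 (33.18%) were identical in Gsdmc2, Gsdmc3 and Gsdmc4. The libraries were single-end reads of 50 bases. Of all 50-base words in the transcripts of a gene, 48.66% occurred in no other gene for Gsdmc2, 53.97% for Gsdmc3, 61.0% for Gsdmc4, 83.94% for Gsdmc and 100% for Gsdmd. Gsdmc2 shared 40.48% of its words with Gsdmc3 and 26.21% with Gsdmc4. Reads with more than 1 best position stand among the alignments that are not unique, outside the gene counts, so the counts of the Gsdmc copies rest on part of their transcripts and those of Gsdmd on the whole.

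Among the 5 genes, RefSeq promoter sequence was at hand for Gsdmc3. The 250 bases before its start (GRCm38.p6, chr15:63878559-63878808, minus strand) are shown because the Gsdmc copies varied together in these tumours, as described below. Capitals mark a match to TATANAA, searched on both strands, 29 to 23 bases upstream of the start.
Gsdmc3: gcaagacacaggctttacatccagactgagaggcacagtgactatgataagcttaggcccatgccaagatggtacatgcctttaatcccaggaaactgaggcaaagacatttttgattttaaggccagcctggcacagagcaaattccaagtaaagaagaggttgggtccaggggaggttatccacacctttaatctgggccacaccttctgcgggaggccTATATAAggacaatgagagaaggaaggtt

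The motif TATANAA was present in 10.41% of 32851 mouse promoter windows. Searched on both strands, TTC and GAA with 4 bases of any kind between them, the spacing known for Stat6, had no match in this window, and 5.85% of all windows held it. TTCNNNGAA, a general Stat motif, had none either, and 7.02% of all windows held it.

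Gene counts per library ranged over 10293818 to 12962496, and the depth-scaled counts below, in CPM, use these totals with TMM factors of 0.899 to 1.12. Il1rl1 lay between 7.3 and 25.0 CPM in the 6 St2-/- host libraries, against 36.5 to 275 CPM in the 6 WT host libraries, so the host labels matched the deleted gene. The smooth muscle markers, summed, were highest in WT => St2-/- replicates 2 and 3 (3870 and 1800 CPM) and in St2-/- => WT replicates 1 and 2 (3140 and 1640 CPM), against 254 to 560 CPM in the other 8 libraries.

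Gsdmc2 was the most abundant Gsdmc copy in all 12 libraries. It had 94.5, 112 and 65.4 CPM in St2-/- => St2-/- tumours and 546, 862 and 742 CPM in WT => St2-/- tumours. In WT hosts it had 226, 239 and 131 CPM under St2-/- marrow and 102, 33.7 and 79.3 CPM under WT marrow. The WT => St2-/- libraries stood above every other library, the St2-/- => WT libraries came next without overlap, and the St2-/- => St2-/- and WT => WT libraries overlapped. Group means were 90.7 ± 23.7, 717 ± 159, 199 ± 58.8 and 71.5 ± 34.6 CPM in St2-/- => St2-/-, WT => St2-/-, St2-/- => WT and WT => WT tumours (SD, n = 3 each).

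Gsdmc3, its closest copy by sequence, had 24.9, 28.8 and 11.7 CPM in St2-/- => St2-/- tumours and 113, 233 and 245 CPM in WT => St2-/- tumours. In WT hosts it had 70.3, 78.4 and 34.2 CPM under St2-/- marrow and 29.8, 4.06 and 17.4 CPM under WT marrow. The order of the groups was that of Gsdmc2, again with overlap of the lowest pair alone.

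Gsdmc4 had 20.8, 20.0 and 9.51 CPM in St2-/- => St2-/- tumours and 128, 137 and 158 CPM in WT => St2-/- tumours. In WT hosts it had 53.7, 58.5 and 26 CPM under St2-/- marrow and 39.3, 5.80 and 16.5 CPM under WT marrow. Here too the WT => St2-/- libraries were the highest of all, while the WT => WT libraries overlapped both groups with St2-/- marrow.

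Gsdmc itself was nearly absent. WT => St2-/- replicate 2 held 91 reads (7.91 CPM), and the other 11 libraries held 9 in all, at most 4 in any library and 0 in 6 of them. That library was also the one with the highest Gsdmc2 level, and the other WT => St2-/- libraries did not share its Gsdmc reads. Gsdmc made up 0.638% of its Gsdmc-family reads (exact 95% binomial interval 0.514% to 0.783%), against 0 of 13021 in WT => St2-/- replicate 3, which allows a share of up to 0.0283%. Such intervals cover counting error only.

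Gsdmd showed another pattern, with a difference between hosts. It had 189, 234 and 206 CPM in St2-/- => St2-/- tumours and 317, 153 and 261 CPM in WT => St2-/- tumours. In WT hosts it had 357, 416 and 357 CPM under St2-/- marrow and 368, 360 and 364 CPM under WT marrow. Every St2-/- host library lay below every WT host library, and the marrow groups within a host overlapped. Its means were 209 ± 22.9, 243 ± 83.6, 376 ± 34.1 and 364 ± 4.33 CPM in St2-/- => St2-/-, WT => St2-/-, St2-/- => WT and WT => WT tumours (SD, n = 3 each).

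**Figure D1:**
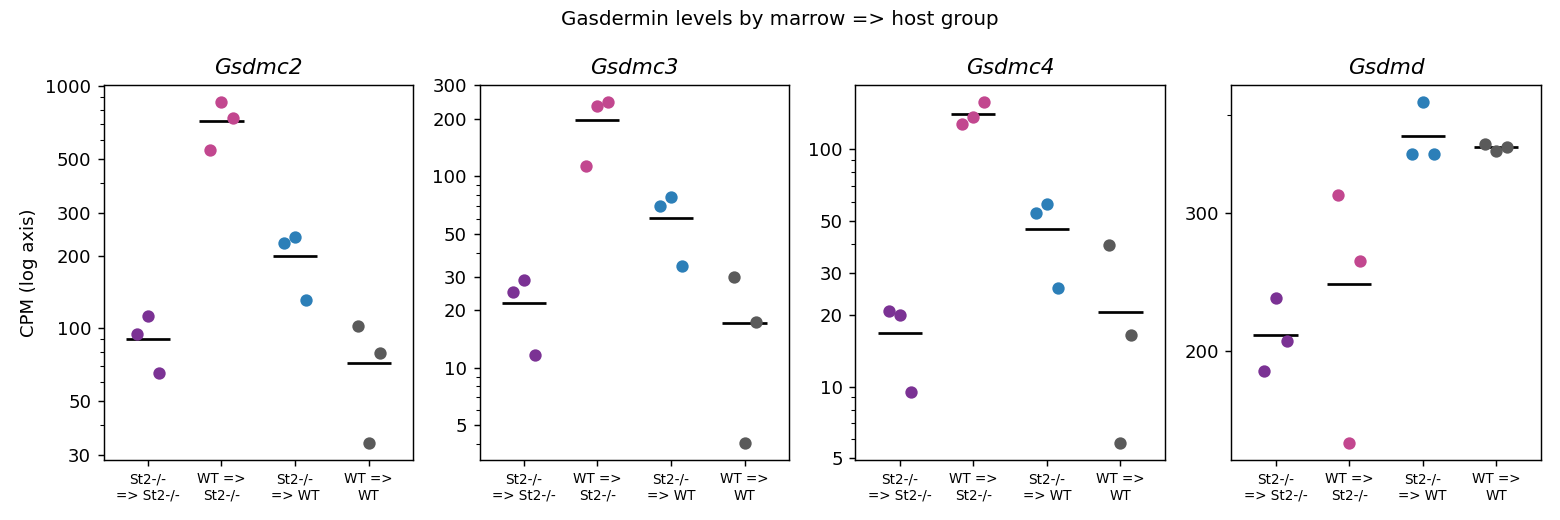
Levels in CPM (log axis) of Gsdmc2, Gsdmc3, Gsdmc4 and Gsdmd in each library, with points for the 3 libraries of a group and a line at their mean. The 3 Gsdmc copies are highest in WT => St2-/- tumours, and Gsdmd lies at 153 to 317 CPM in St2-/- hosts against 357 to 416 CPM in WT hosts.

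Levels of different genes are compared per 1000 transcript words that are unique to the gene. On this scale Gsdmc2 averaged 637 CPM and Gsdmd 98.8 CPM in WT => St2-/- tumours. In WT => WT tumours Gsdmc2 averaged 63.6 CPM and Gsdmd 148 CPM, so the order of the pair turned between these groups. In St2-/- => St2-/- tumours they were close, at 80.6 ± 21 CPM for Gsdmc2 and 85.0 ± 9.28 CPM for Gsdmd (SD, n = 3). Per kilobase of exon, which takes no account of shared words, Gsdmc2 averaged 39.2 CPM and Gsdmd 88.1 CPM in that group.

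The make-up of the Gsdmc family varied less than its level. The 4 Gsdmc genes summed to 86.6 to 161 CPM in St2-/- => St2-/-, 787 to 1240 CPM in WT => St2-/-, 192 to 375 CPM in St2-/- => WT and 43.7 to 171 CPM in WT => WT libraries. Over the 12 libraries, Gsdmc2 held 59.5% to 77.2% of these reads (median 69.0%), Gsdmc3 9.29% to 21.4% (median 17.8%) and Gsdmc4 11% to 23.0% (median 14.2%). Gsdmc3 had more reads than Gsdmc4 in most libraries, and Gsdmc4 more than Gsdmc3 in 3. These shares use counts not scaled for the unequal number of unique words.

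The comparison of hosts under St2-/- marrow set St2-/- => St2-/- against St2-/- => WT tumours, which both carry marrow without St2. It shares no library with the comparison in which Gsdmc2 stood out earlier, but its St2-/- => St2-/- libraries were part of another in which Gsdmc2 was known to be low, so its values are not independent of that result. All 4 tested gasdermins lay lower in St2-/- => St2-/- tumours, with no overlap of libraries, and none was called at an adjusted p under 0.05. Among all genes tested, 12.7% lay lower without overlap and 0.0598% were called in either direction. By edgeR's quasi-likelihood test the log2 fold change of Gsdmd was -0.85 (SE 0.22, adjusted p = 0.275). It was -1.13 for Gsdmc2 (SE 0.38, adjusted p = 0.356). Gsdmc3 and Gsdmc4 had -1.48 (SE 0.60, adjusted p = 0.394) and -1.46 (SE 0.56, adjusted p = 0.384). All 4 were lower at p under 0.05 before adjustment, against 7.36% of all genes, and the choice of genes partly fixed the share of the 4. The Gsdmc copies share sequence and varied together, so the 4 genes are not 4 separate observations. DESeq2 called 1 of the 4, Gsdmd (log2 fold change -0.84, adjusted p = 0.0257), against 262 of all genes (1.74%).

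In bulk tumours fewer cells of a type and less RNA per cell cannot be told apart. The epithelial markers, summed, lay at 9900 to 12600 CPM in St2-/- => St2-/- against 15100 to 16900 CPM in St2-/- => WT libraries, without overlap. With their sum as a covariate, a choice made after the values were seen, the log2 fold change of Gsdmd was -0.40 (SE 0.12) and that of Gsdmc2 -1.22 (SE 0.47). With the smooth muscle sum as a covariate instead, Gsdmd had -1.16 (SE 0.22) and Gsdmc2 -0.91 (SE 0.48). Gsdmc3 then had -1.15 (SE 0.78) and Gsdmc4 -1.48 (SE 0.74). With the 4 libraries of highest smooth muscle sum left out together, also chosen afterwards, Gsdmc2 had -0.53 (SE 0.55), Gsdmc3 -0.65 (SE 0.89) and Gsdmc4 -0.63 (SE 0.88), and St2-/- => WT was then replicate 3 alone, assumed to vary like the other groups. The part of these tissue components in the differences was not tested.

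The comparison of marrows in WT hosts set St2-/- => WT against WT => WT tumours. Its WT => WT libraries were among those whose low Gsdmc2 level chose the genes, so their values here are a description without a test. Gsdmc2 and Gsdmc3 lay higher in St2-/- => WT tumours without overlap, as 4.9% of all genes did. The log2 fold changes were 1.47 for Gsdmc2 (SE 0.39) and 1.83 for Gsdmc3 (SE 0.61). Gsdmc4 had 1.16 (SE 0.56) and Gsdmd 0.05 (SE 0.22), both with overlap. Without WT => WT replicate 1, the highest library of its group for these copies, Gsdmc3 had 2.48 and Gsdmc4 2.03, and without replicate 2, the lowest, they had 1.37 and 0.72. Over all 15060 genes edgeR called 0 (0%) in this comparison, with 910 at p under 0.05 before adjustment, and DESeq2 called 0.

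The smooth muscle list moved with this comparison, summing to 3140, 1640 and 552 CPM in St2-/- => WT against 254, 560 and 535 CPM in WT => WT libraries. St2-/- => WT replicate 3, whose muscle sum lay within the WT => WT range, had 131 CPM of Gsdmc2, above all 3 WT => WT libraries. With the muscle sum as a covariate, Gsdmc2 had 1.25 (SE 0.49), Gsdmc3 1.48 (SE 0.80) and Gsdmc4 1.19 (SE 0.77). Without the 4 libraries of highest muscle sum the log2 fold change of Gsdmc2 was 0.87 (SE 0.54), that of Gsdmc3 1.00 (SE 0.88) and that of Gsdmc4 0.34 (SE 0.89). St2-/- => WT was then replicate 3 alone. The part of muscle in the difference was not tested.

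The remaining comparisons also involve the libraries from which the genes were chosen, and the values of the 5 genes in them are again a description. Between WT => St2-/- and WT => WT tumours the log2 fold change was 3.32 for Gsdmc2 (SE 0.41), 3.52 for Gsdmc3 (SE 0.65), 2.78 for Gsdmc4 (SE 0.58) and -0.58 for Gsdmd (SE 0.22), each without overlap. Of all genes tested, 7.84% lay higher and 9.82% lower without overlap, and 0.159% were called. Without WT => WT replicate 1, Gsdmc3 had 4.2 and Gsdmc4 3.66. Gsdmd had -0.33 without WT => St2-/- replicate 2 and -0.82 without WT => St2-/- replicate 1. With the epithelial sum as a covariate, chosen after the values were seen, Gsdmd had -0.32.

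Markers of some other cell types moved with this comparison. At an unadjusted p under 0.05, 8 of 10 smooth muscle genes were higher in WT => St2-/- than in WT => WT (median log2 fold change 2.66), against 8.36% of all genes. At that level 6 of 12 leukocyte genes were lower (median -1.0) and 20 of 22 interferon-γ response genes were lower (median -2.33), against 8.33% of all genes. By edgeR 0 of the muscle and leukocyte genes and 4 of the interferon-γ response genes were called, all 4 lower. DESeq2 called 6 muscle genes higher, and 2 leukocyte and 18 interferon-γ response genes lower, among 4.95% of all genes. Of 13 epithelial genes 1 was lower and 0 were higher at the unadjusted level (median -0.24). Of 15 genes of differentiated colonocytes (median -0.51) and 9 of fibroblasts and endothelium (median -0.54), 0 differed at that level. Both tools called 0 genes of these lists. Smooth muscle summed to 370, 3870 and 1800 CPM in WT => St2-/- replicates 1, 2 and 3, which had 546, 862 and 742 CPM of Gsdmc2, against 254 to 560 CPM of muscle and at most 102 CPM of Gsdmc2 in WT => WT libraries. Replicate 1 thus had the lowest muscle sum and the lowest Gsdmc2 level of its group, with muscle in the WT => WT range and Gsdmc2 above it. With the smooth muscle sum as a covariate, chosen after the values were seen, the log2 fold change was 3.1 for Gsdmc2 and 3.16 for Gsdmc3. It was then 2.8 for Gsdmc4 and -0.34 for Gsdmd. Without the 4 libraries of highest muscle sum it was 2.93 for Gsdmc2, 2.73 for Gsdmc3, 2.63 for Gsdmc4 and -0.2 for Gsdmd. WT => St2-/- was in that case replicate 1 alone. The part of these markers in the differences was not tested.

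Between St2-/- => St2-/- and WT => St2-/- tumours the log2 fold change was -2.98 for Gsdmc2 (SE 0.41), -3.17 for Gsdmc3 (SE 0.64) and -3.07 for Gsdmc4 (SE 0.59), without overlap, where 4.23% of all genes lay lower in this way. Gsdmd had -0.22 (SE 0.22) with overlap.

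Averaged over both marrows, St2-/- hosts against WT hosts gave a log2 fold change of -0.71 for Gsdmd (SE 0.16), with 6 against 6 libraries apart, as in 1.71% of genes lower in this way. Over the alternatives other than leaving out 1 library, this value for Gsdmd ran from -0.75 to -0.36. For the Gsdmc copies the host averages of 1.10 for Gsdmc2 (SE 0.27), 1.02 for Gsdmc3 (SE 0.42) and 0.66 for Gsdmc4 (SE 0.39) combined differences of opposite sign and overlapped. Higher in WT => St2-/- than in WT => WT and lower in St2-/- => St2-/- than in St2-/- => WT, with no overlap in either, held for 39 genes (0.259%), 3 of them Gsdmc copies. Similarly, 78 genes (0.518%) stood higher in the WT => St2-/- libraries than in all 9 other libraries, again with 3 Gsdmc copies among them. These shares describe a pattern that the choice of genes partly fixed.

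**Figure D2:**
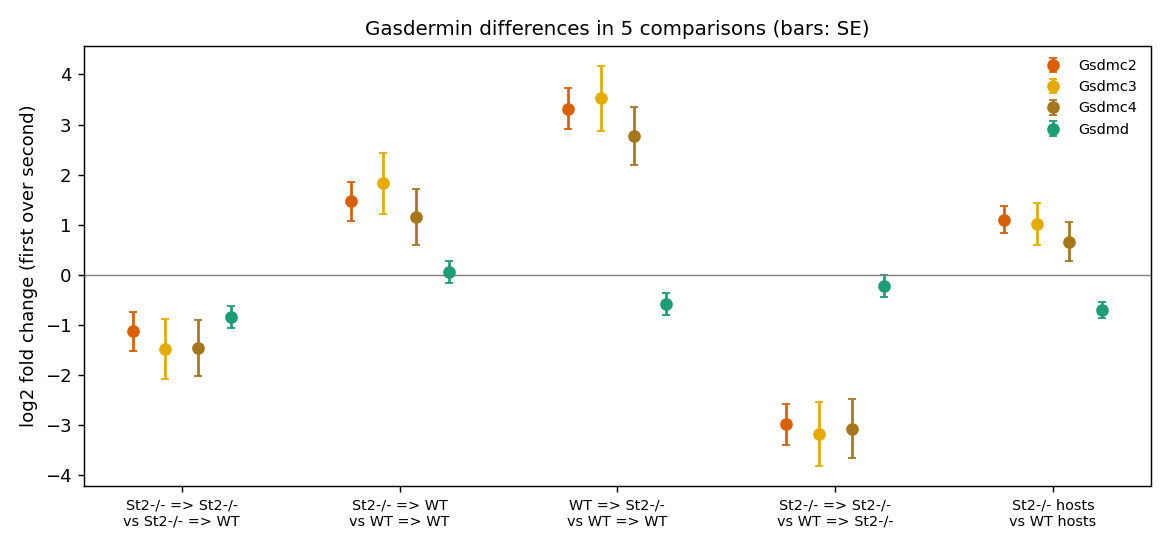
Log2 fold changes with standard errors of Gsdmc2, Gsdmc3, Gsdmc4 and Gsdmd in the comparisons between groups, each the first-named group over the second. The Gsdmc copies lie at 2.78 to 3.52 in WT => St2-/- against WT => WT and at -1.48 to -1.13 in St2-/- => St2-/- against St2-/- => WT.

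Around the Gsdmc genes, 12 other genes within 2 Mb were in the table and 8 were tested. Gsdmcl-ps, a pseudogene of the family on the opposite strand 2151 bases from Gsdmc4, averaged 3.6 ± 0.974 CPM in St2-/- => St2-/-, 19.6 ± 1.97 CPM in WT => St2-/-, 5.26 ± 3.06 CPM in St2-/- => WT and 1.40 ± 0.782 CPM in WT => WT tumours (SD, n = 3 each). By means, its highest group was WT => St2-/- and its next St2-/- => WT, as for the Gsdmc copies. Since the strand setting of the counting is not given, antisense reads cannot be assigned to a strand. By edgeR its log2 fold change was -0.55 in St2-/- => St2-/- against St2-/- => WT (SE 0.45, adjusted p = 0.636). It was 1.89 (SE 0.48) in St2-/- => WT against WT => WT, given without a test.

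The other tested neighbours are given for WT => St2-/- against WT => WT, without a test. The log2 fold changes were -0.49 for Myc (SE 0.21), the proto-oncogene, and -0.18 for Pvt1 (SE 0.41), the long non-coding RNA beside it. Fam49b, the nearest coding gene, had -0.20 (SE 0.10), Asap1 0.27 (SE 0.20), Adcy8 -0.74 (SE 0.67), Efr3a -0.09 (SE 0.17) and the pseudogene H2afy3 0.90 (SE 0.73).

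**Figure D3:**
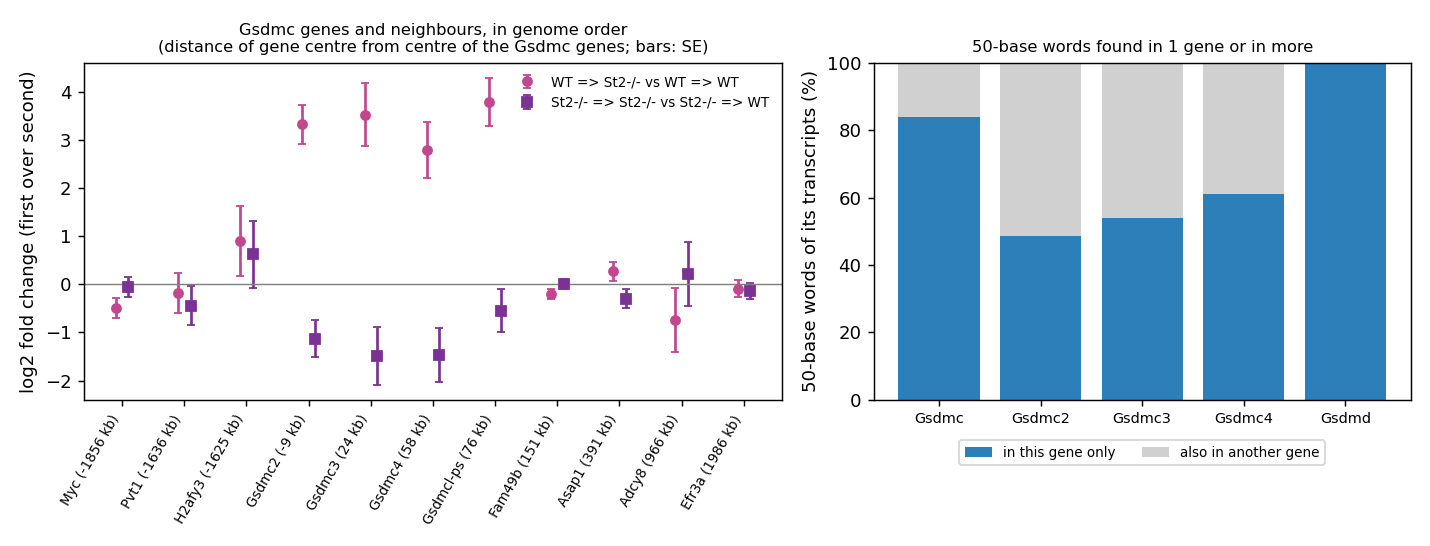
The left panel gives log2 fold changes with standard errors of Gsdmc2, Gsdmc3, Gsdmc4 and the 8 tested neighbours in genome order, for WT => St2-/- against WT => WT and for St2-/- => St2-/- against St2-/- => WT. In the first of these the Gsdmc copies and Gsdmcl-ps lie at 2.78 to 3.78 and the other neighbours at -0.74 to 0.90. The right panel gives the percent of 50-base transcript words that occur in that gene alone or also in another, from 48.66% unique in Gsdmc2 to 100% in Gsdmd.

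By likeness of pattern, the root mean square difference of centred log2 CPM over the 12 libraries, Gsdmc4 (0.35), Gsdmc3 (0.39) and Gsdmcl-ps (0.50) were near Gsdmc2, whose own variation was 1.40, and Gsdmd (1.58) was not. Among other genes the nearest to Gsdmc2 were Ckm, the muscle creatine kinase (0.66), Slc30a10, a manganese exporter (0.74), the transcription factor gene Etv1 (0.78), the non-coding Dio3os (0.82) and Cdh2, N-cadherin (0.85). All 5 of these nearest genes were low, with Ckm for example at 0.155 ± 0.00277 CPM in St2-/- => St2-/-, 1.65 ± 1.32 CPM in WT => St2-/-, 0.918 ± 0.473 CPM in St2-/- => WT and 0.110 ± 0.0957 CPM in WT => WT tumours (SD, n = 3 each). Around Gsdmd, whose own variation was 0.45, stood Hdhd3 (0.14), Tmbim1 (0.16), the epithelial keratin gene Krt8 (0.16), Myd88, an adaptor of interleukin-1 and Toll-like receptors (0.16), and Cldn7, an epithelial tight junction protein (0.16). The 12 libraries share a flow cell and lane, and these likenesses are a description.

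Of the genes that cut or release gasdermins, 21 of 23 listed were tested. In St2-/- => St2-/- against St2-/- => WT tumours 0 were called by edgeR, 7 were lower and 0 higher at an unadjusted p under 0.05, and DESeq2 called 1, Nlrp9b, lower. Of all genes, 7.36% were lower and 4.65% higher at that level and DESeq2 called 1.74%, shares that also stand beside the lists below in this comparison. The median log2 fold change was -0.60, against 0.00 over all genes tested. Casp1, which cuts Gsdmd and pro-interleukin-1β, had -1.19 (SE 0.36, adjusted p = 0.323), and Casp4, the sensor of intracellular lipopolysaccharide, -1.08 (SE 0.32, adjusted p = 0.319). Nlrp9b, an intestinal inflammasome sensor, had -1.34 (SE 0.33, adjusted p = 0.240). In St2-/- => WT against WT => WT the list had 0 called by either tool and 0 at the unadjusted level, with a median of 0.15 against 0.01 over all genes. There 2.92% of all genes were higher and 3.12% lower at that level, also beside the lists below.

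Of 29 genes of type 2 cytokines, their receptors and the epithelial response to them, 19 were tested and 0 were called by edgeR in either comparison. In St2-/- => St2-/- against St2-/- => WT, 1 was higher and 3 lower at an unadjusted p under 0.05, with a median log2 fold change of -0.27, and DESeq2 called 1, Retnlb, lower. Retnlb, a goblet cell protein known from worm infection, had -2.63 (SE 0.59, adjusted p = 0.202), and Ang4, an antimicrobial ribonuclease, 1.79 (SE 0.60, adjusted p = 0.354). In St2-/- => WT against WT => WT, 1 was lower and 0 higher at that level, with a median of 0.21, and DESeq2 called 0. The list summed to 2020, 1210 and 1350 CPM in St2-/- => St2-/-, 2660, 2640 and 1560 CPM in WT => St2-/-, 2290, 3270 and 1500 CPM in St2-/- => WT, and 5180, 1100 and 1650 CPM in WT => WT libraries. These sums overlapped between all groups. In WT => St2-/- against WT => WT, edgeR called 0 of the 19, 3 were higher and 0 lower at an unadjusted p under 0.05, against 8.36% and 8.33% of all genes, and the median was 0.34. The 3, named after their values were seen, were also called by DESeq2. Mcpt1 and Mcpt2, proteases of mucosal mast cells, had 3.09 (SE 0.88, adjusted p = 0.153 by edgeR) and 3.24 (SE 0.84, adjusted p = 0.128), and Il17rb, a subunit of the interleukin-25 receptor, 2.08 (SE 0.55, adjusted p = 0.131). These genes were thus high in the same comparison as the Gsdmc copies, and their part in it was not tested.

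Interferon-γ is known to raise inflammatory caspases such as Casp4. Of 22 interferon-γ response genes, all tested, 1 was called in St2-/- => St2-/- against St2-/- => WT, Ido1, a tryptophan-degrading enzyme, which fell at a log2 difference of -5.87 (SE 0.71) and an adjusted p = 0.0177 by edgeR. At an unadjusted p under 0.05, 21 were lower, with a median log2 fold change of -1.93, and DESeq2 called 18, all lower. Irf1, a transcription factor of this response, had -1.90 (SE 0.29, adjusted p = 0.0635). The list summed to 1500 to 2690 CPM in St2-/- => St2-/- against 4860 to 8720 CPM in St2-/- => WT libraries, and to 1210 to 1840 CPM in WT => St2-/- against 4310 to 7140 CPM in WT => WT libraries. It therefore separated hosts as Gsdmd did, and its part in the Gsdmd difference was not tested. In St2-/- => WT against WT => WT, 0 of the 22 were called by either tool and 1 was higher at the unadjusted level.

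Epithelial and muscle markers were counted in the same way. In St2-/- => St2-/- against St2-/- => WT, 0 of 13 epithelial genes were called by edgeR, 5 were lower at an unadjusted p under 0.05, and their median log2 fold change was -0.55, with 0 called by DESeq2. Of 15 tested genes of differentiated colonocytes, 0 were called by edgeR and 8 were lower at that level, with a median of -1.22, and DESeq2 called 2, Krt20 and Slc51b, lower. Krt20, the keratin of surface colonocytes, had -2.10 (SE 0.67, adjusted p = 0.341). Of 10 smooth muscle genes edgeR called 0, DESeq2 called 1, Actg2, lower, and 7 were lower at the unadjusted level, with a median of -2.24. Neither tool called any of these genes in St2-/- => WT against WT => WT (0 each). At the unadjusted level 7 smooth muscle genes were then higher, with a median of 2.47, 1 colonocyte gene was higher, with a median of 0.48, and 0 epithelial genes differed, with a median of 0.18. Of 12 leukocyte genes both tools called 0 in either comparison, with 1 lower at the unadjusted level in St2-/- => St2-/- against St2-/- => WT and 2 lower in St2-/- => WT against WT => WT. Of 9 fibroblast and endothelial genes both tools called 0, and 0 differed at the unadjusted level in either comparison. WT => St2-/- replicate 2, with the highest Gsdmc2 level of all 12 libraries, had the lowest summed epithelial markers, 7040 CPM, and the highest smooth muscle sum, 3870 CPM, and the part of either in that level was not tested.

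**Figure D4:**
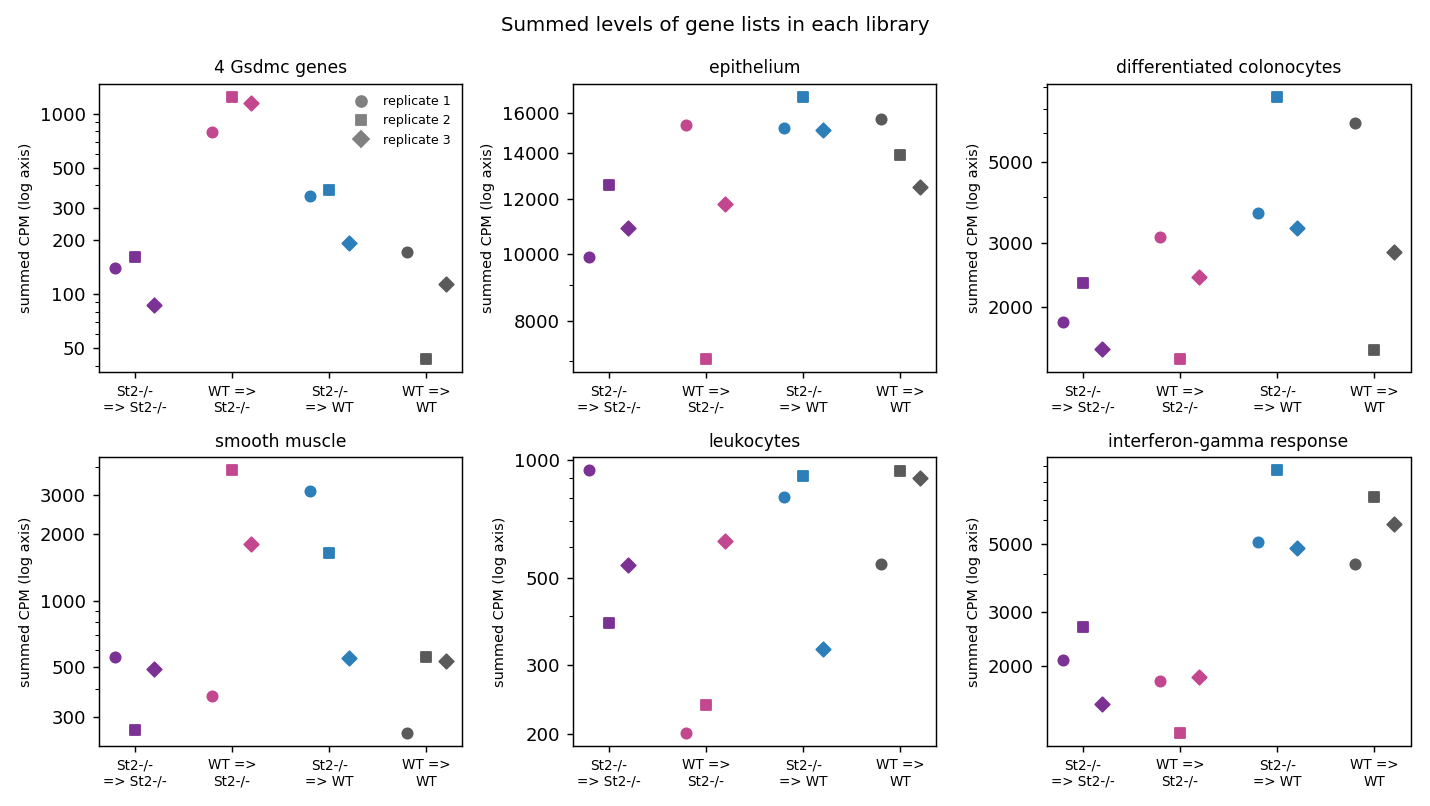
Summed CPM (log axes) of the 4 Gsdmc genes and of gene lists in each library, with marker shapes for replicates. The Gsdmc sum is highest in WT => St2-/-, at 787 to 1240 CPM, while the interferon-γ response list lies at 1210 to 2690 CPM in St2-/- hosts and 4310 to 8720 CPM in WT hosts.

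Of 5 other gasdermin genes, 2 were tested. Gsdma had a log2 fold change of 0.81 in St2-/- => St2-/- against St2-/- => WT (SE 0.53, adjusted p = 0.533), and Dfna5, the gasdermin E gene, 0.04 (SE 0.34, adjusted p = 0.976) by edgeR. In St2-/- => WT against WT => WT they had -0.34 (SE 0.52, adjusted p = 0.936) and -0.02 (SE 0.34, adjusted p = 0.998). Libraries of these genes overlapped in both comparisons, 0 of the 2 were at an unadjusted p under 0.05, and DESeq2 called 0.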

How the data were processed

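RNA of 12 colon tumours was sequenced as single-end reads of 50 bases from TruSeq libraries, per the labels' protocols. Per the submitters' processing notes, alignment used TopHat and Bowtie2 on the GRCm38 (mm10) genome. Tool versions, counting tool, annotation and strand setting are not given in the sources used here. What the authors deposited was whole-number read counts for each gene, not normalized, with 5 summary entries that name no gene and held 49.75% to 59.64% of each library's total, of which alignments that were not unique were 36.74% to 48.86%. These entries entered neither library sizes nor tests.

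The models were run in edgeR 4.0.16 under R 4.3.3. The filter filterByExpr (minimum count 10) left 15060 genes, counts were scaled by TMM, and a robust quasi-likelihood model had 1 coefficient for each of the 4 groups. Tests were two-sided, with Benjamini-Hochberg adjustment over all genes tested and calls at an adjusted p under 0.05. Log2 CPM for likeness had a prior count of 2. Coding sequences were aligned with MAFFT 7.526, and coordinates came from GENCODE M21. Scripts in R and Python 3.11.15 were tested on simulated data.

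The genes and lists were chosen with earlier results of these data known. Of the 5 genes, the 4 that passed the filter were tested in St2-/- => St2-/- against St2-/- => WT and described without a test elsewhere. That test is not free of the choice either, because Gsdmc2 was already known to be low in the St2-/- => St2-/- libraries. Its p-values carry that limit. A planned test in St2-/- => WT against WT => WT is given for the gene lists and for counts over all genes alone, since its WT => WT libraries helped to choose the genes. All 5 genes were named, with up to 4 genes a list by smallest p in the tested comparisons, tested neighbours within 2 Mb, and the 5 genes of closest pattern to Gsdmc2 and to Gsdmd. A gene that this rule named is not reported here. Alternatives were DESeq2 1.42.0, other scalings and filters, a replicate block, weeks as a covariate, only the 2 groups compared, summed Gsdmc counts, and each library left out, and tissue scores were added after the values were seen.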

Additional observations from a re-analysis of the deposited data

Results flagged for a closer look

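For 3 Gsdmc copies every library of St2-/- hosts lay above those of WT hosts under WT marrow and below them under St2-/- marrow, and this is why they are listed. For Gsdmc2 the log2 fold change was 3.32 in WT => St2-/- against WT => WT and -1.13 in St2-/- => St2-/- against St2-/- => WT. For Gsdmc3 these values were 3.52 and -1.48, and for Gsdmc4 they were 2.78 and -1.46. Under St2-/- marrow none of the 3 was called by edgeR (adjusted p = 0.356, 0.394 and 0.384). With the smooth muscle sum as a covariate Gsdmc2 had -0.91 (SE 0.48) there. Without the 4 libraries of highest smooth muscle sum it had -0.53 (SE 0.55), with St2-/- => WT then replicate 3 alone. The difference between the marrows was not tested, since WT => St2-/- libraries were among those from which the genes were chosen. The copies share sequence and varied together, so they are not separate observations.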

How the results depend on the processing

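In St2-/- => St2-/- against St2-/- => WT, 9 genes were called. The number was 1 with a replicate block, 4 with weeks as a covariate, 2 with only the 2 groups compared, and 262 by the DESeq2 Wald test. With tissue scores added after the values were seen it was 19 with the smooth muscle sum as a covariate, 3 with the epithelial sum, and 1 with the 4 libraries of highest muscle sum left out. Leaving out each library in turn gave 1 to 17: 1 without WT => WT replicate 3, St2-/- => WT replicate 2, or St2-/- => St2-/- replicate 1 or 3, 2 without St2-/- => St2-/- replicate 2, 5 without WT => St2-/- replicate 3 and 17 without St2-/- => WT replicate 3. Deviations of same-numbered libraries from their group means had correlations of 0.236, -0.108 and 0.136 in this comparison. In St2-/- => WT against WT => WT they were -0.118, -0.435 and -0.123. The main model used no pairing by replicate number. Libraries of unlike number were not set beside these values, which therefore cannot exclude pairing. In St2-/- => St2-/- against St2-/- => WT, Gsdmd was called by DESeq2 alone (log2 fold change -0.84), while Gsdmc2, Gsdmc3 and Gsdmc4 kept their direction and stayed uncalled under every alternative, with adjusted p of 0.123 to 0.999 for Gsdmc2. In St2-/- => WT against WT => WT, Gsdmd changed sign to -0.05 without St2-/- => WT replicate 2 (range -0.05 to 0.09 over libraries left out), to -0.11 with the epithelial sum and to -0.03 without the 4 muscle-rich libraries, and no gene was called under any alternative. With the 4 Gsdmc counts summed before the fit, the log2 fold change was -1.24 in St2-/- => St2-/- against St2-/- => WT, 1.49 in St2-/- => WT against WT => WT and 3.28 in WT => St2-/- against WT => WT. Without WT => WT replicate 1, Gsdmc4 in WT => St2-/- against WT => WT was 3.66. In all, 470 of 492 alternative values were scored as the same, by rules that differed between values. Counts of genes called had to stay within a set ratio of the main count. Gasdermin values in the comparison under St2-/- marrow and in that of WT hosts had to keep direction and call, whatever their size. Gsdmc4 in St2-/- => WT against WT => WT thus scored as the same at 0.34 and at 2.03, against 1.16. In the remaining comparisons a value had to move by less than the replicate spread. With 3 libraries a group, and shared sequence among the Gsdmc copies, both precision and the assignment of reads to single copies are limited.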

Other observations

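WT => St2-/- replicate 2, the library with 91 Gsdmc reads against at most 4 in any other, also held more reads of Il13, Il5 and Il4 than the rest. These type 2 cytokine genes were picked here after their values were seen, and Il9 and Il25 of the same list are not given. It had 39 reads of Il13 against 0 to 2 in each of the other 11 libraries, 11 of Il5 against 0 to 3, and 7 of Il4 against 0 to 4. None of these cytokine genes passed the filter on low counts, and the other WT => St2-/- libraries, at 546 and 742 CPM of Gsdmc2, did not share them.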
